A study of Bos taurus with 12 samples.

Results

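The genes described are 47 markers of proliferation, 20 that act in S phase and 27 that act in G2 and mitosis, in bovine bone marrow mesenchymal stem cells (MSCs) grown with or without transforming growth factor β3 (TGF-β3) at 2% or 21% oxygen. A gene was taken from a probe set whose only annotated symbol is that gene, and where there were several such probe sets from the one with the highest mean over the 12 arrays. By this rule 43 of the 47 genes were measured, out of 18087 gene symbols and 26773 probe sets in all. All 20 S phase genes and 23 of the 27 G2 and mitosis genes were among them. CCNB2 and NUSAP1 lay only on probe sets annotated to several genes, and TTK and TOP2A had no probe set under their own symbol alone, so these 4 are not reported.

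A dividing cell copies its DNA in S phase and separates the copies in mitosis. In G1 the helicase made of MCM2 to MCM7 is loaded onto DNA by CDC6 and CDT1, and E2F factors, held back by RB1 until cyclin-dependent kinases inactivate it, switch on the S phase genes. Later MYBL2 and FOXM1, which act with the MuvB complex, switch on the G2 and mitosis genes, among them CDK1 with its cyclins, the Aurora and Polo-like kinases, and the motors and kinetochore proteins that move chromosomes. TGF-β arrests many epithelial cells in G1, while mesenchymal cells can respond to it with growth.

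The cells came from the femurs and tibiae of 3 juvenile cattle under 6 months old. Every culture went through a first passage at 21% oxygen in serum-containing basal medium, was passaged again and was kept for 1 week in its condition before RNA was extracted. The 4 conditions were 2% oxygen with 10 ng/mL TGF-β3, 2% oxygen without TGF-β3, 21% oxygen with 10 ng/mL TGF-β3, and 21% oxygen without TGF-β3. Each held 1 culture from each of the 3 donors, so that a donor is present once in every condition and n = 3 per condition throughout.

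Values are log2 signals of a bovine whole-transcript Affymetrix array, normalised by the submitters, and the number of arrays limits their precision. Array medians lay between 6.59 and 6.66, and all 43 genes were above the median of the array on all 12 arrays. Signals are compared between arrays for 1 probe set, never between genes. The labelled cell type was checked on marker lists: 10 of 12 mesenchymal stromal markers were above the array median on every array, while LEPR and VCAM1 were below the first quartile on every array. Of the haematopoietic markers 2 of 12, CD14 and CD68, were above the median on every array and the pan-leukocyte gene PTPRC was below the first quartile. None of 8 endothelial and none of 7 erythroid markers were above the median on every array, and 1 of 6 osteoclast markers was, the transcription factor NFATC1.

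TGF-β3 was set against no TGF-β3 first as the average of the comparisons at both oxygen tensions. The mitotic transcription factor MYBL2, the CDK1-activating phosphatase CDC25C, the kinases AURKA, PLK1 and AURKB, the cyclin CCNB1, the motor KIF23 and the kinetochore protein CENPF rose, by 1.29 to 1.60-fold. All 8 act in G2 and mitosis, and none of the 20 S phase genes passed the test in this fit, which had no donor term. With donor as a term the S phase genes RRM2, MCM10 and CCNA2 also passed. Each of the 43 genes had a mean difference above 0, whereas 52.6% of all probe sets did. In RNA from whole cultures, more cycling cells and more transcript per cell cannot be told apart.

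The 8 genes called higher (limma, adjusted p under 0.05 over all probe sets) are 18.6% of the 43, against 4.65% of all probe sets called higher. With donor as a term in the limma fit the count was 16 of 43, or 37.2%, against 7.3% of all probe sets, and no gene was called lower in either fit. At an unadjusted p under 0.05 it was 19 of 43, all higher, against 11.5% of all probe sets. The genes share the same 12 arrays, so their counts are not independent observations. The median difference over the 43 genes was 0.26 on the log2 scale, against 0.01 over all probe sets, and it was 0.07 in donor 1, 0.18 in donor 2 and 0.57 in donor 3. Without donor 3 the median over the genes was 0.12. The count depended on single cultures: it was 2 or 3 without donor 2 or donor 3 at 2% oxygen, or without either of them at 21% oxygen, both without TGF-β3, 3 without donor 1 or donor 3 at 2% oxygen with TGF-β3, and 4 or 3 without donor 1 or donor 3 at 21% oxygen with TGF-β3. It was 1 without donor 1, 1 without donor 2 and 2 without donor 3. Of all probe sets 3.09%, 2.21% and 6.01% were called without these donors in turn, higher and lower together. Without 1 array that share was 6.61% to 8.62%.

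**Figure D1:**
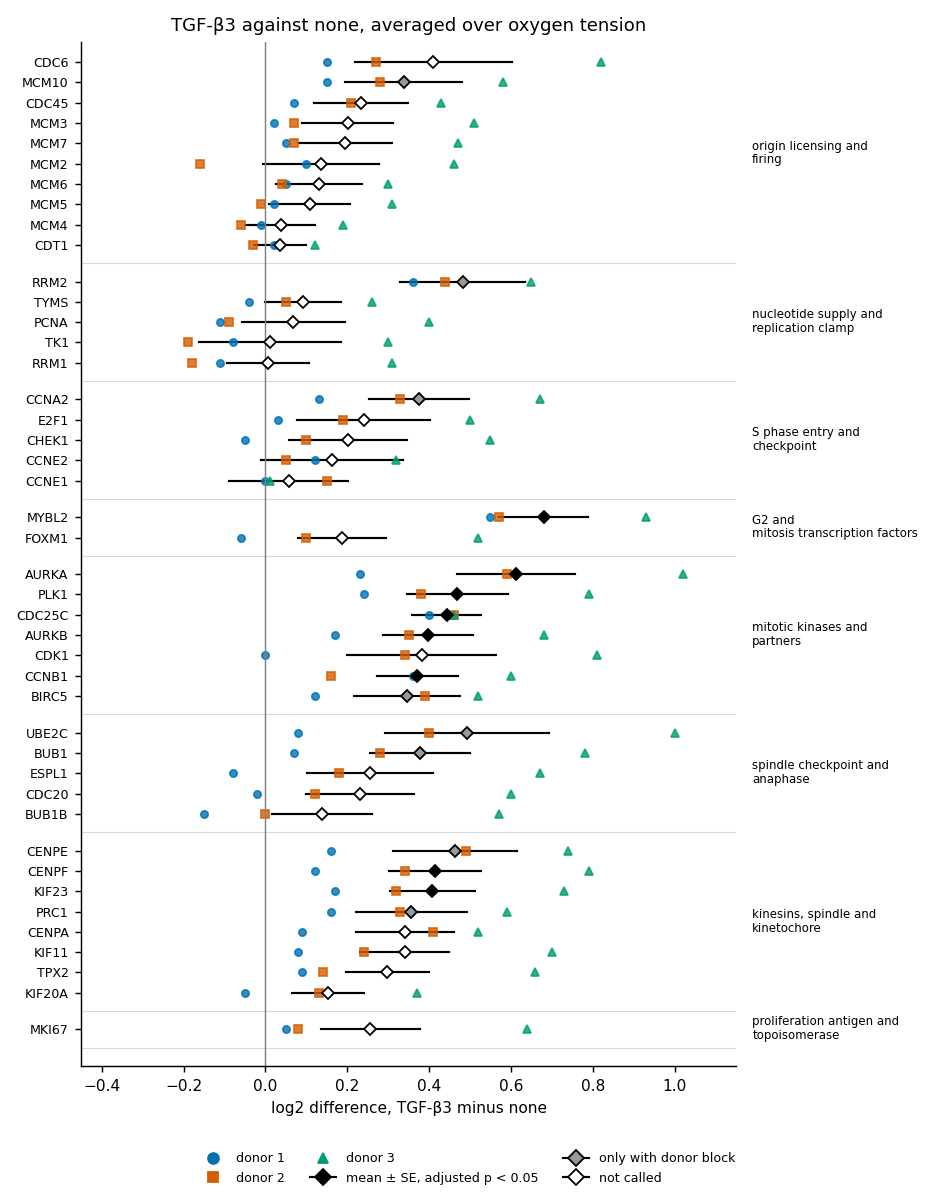
Log2 difference between cultures with and without TGF-β3, averaged over oxygen, for each of the 43 genes in its functional group. Diamonds are means of 3 donors, bars are the SE of the limma fit without donor, and coloured points are the single donors. Filled diamonds mark the 8 genes called by limma and grey ones those called only with donor as a term; the donor 3 point is farthest to the right for 41 of the 43 genes.

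Split by phase, the 23 G2 and mitosis genes had a median difference of 0.37, with 8 called, or 13 with donor as a term, and the 20 S phase genes had a median of 0.15, with 0 called, or 3 with donor as a term. At an unadjusted p under 0.05 the counts were 16 of 23 and 3 of 20. Within donors the G2 and mitosis medians were 0.09, 0.33 and 0.67 in donors 1, 2 and 3, and the S phase medians were 0.03, 0.06 and 0.42. The difference between the phases was not tested. In the sentences that follow, values of single genes are log2 signals given for donors 1, 2 and 3 in that order. A difference is followed by its SE. The SE and 95% intervals are those of the limma fit without donor, also beside an adjusted p with donor as a term. They therefore include the spread between donors, which differences within a donor do not.

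**Figure D2:**
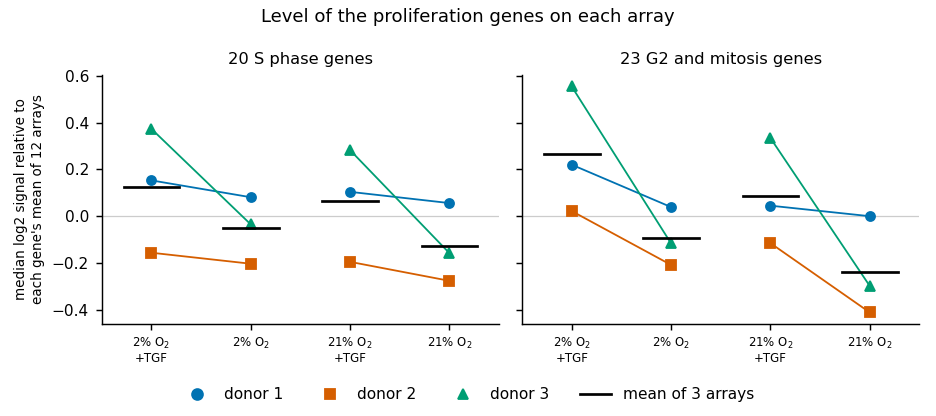
Median over the 20 S phase genes (left) and the 23 G2 and mitosis genes (right) of the log2 signal relative to each gene's own mean over the 12 arrays, 1 point per array, with lines joining the cultures of a donor at 1 oxygen tension and bars at the mean of 3 arrays. Donor 3 with TGF-β3 at 2% oxygen is the highest array in both panels (0.37 and 0.55), and donor 2 at 21% oxygen without TGF-β3 is the lowest (-0.28 and -0.41).

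Among the 10 genes of origin licensing and firing the median TGF-β3 difference was 0.17, and no gene was called except MCM10 with donor as a term. MCM10 had signals of 10.69, 10.25 and 10.79 with TGF-β3 and 10.45, 9.93 and 10.38 without it at 2% oxygen, and of 10.58, 10.30 and 10.90 with TGF-β3 and 10.51, 10.06 and 10.14 without it at 21% oxygen. MCM10, which helps turn loaded helicases into active forks, was higher with TGF-β3 in every donor at both oxygen tensions, although the groups overlapped. Its difference was 0.34 ± 0.14 (limma adjusted p = 0.187, or 0.0263 with donor as a term). CDC6 read 8.48, 7.90 and 8.55 with TGF-β3 at 2% oxygen, against 8.15, 7.61 and 8.04 without it, and 8.28, 7.81 and 8.63 with TGF-β3 at 21% oxygen, against 8.32, 7.57 and 7.51 without it. CDC6, the helicase loader, had the largest difference of these genes, 0.41 ± 0.19 (adjusted p = 0.24), and in donor 1 at 21% oxygen the culture with TGF-β3 was the lower one. The helicase subunits showed little separation. MCM4 had signals of 11.00, 10.84 and 11.05 with TGF-β3 and 11.13, 10.80 and 10.80 without it at 2% oxygen, and of 10.99, 10.66 and 10.80 with TGF-β3 and 10.88, 10.82 and 10.67 without it at 21% oxygen. MCM6 read 10.74, 10.40 and 10.67 with TGF-β3 at 2% oxygen, against 10.61, 10.40 and 10.40 without it, and 10.69, 10.34 and 10.67 with TGF-β3 at 21% oxygen, against 10.72, 10.25 and 10.35 without it. For both the groups overlapped at either oxygen tension, and the differences were 0.04 ± 0.08 for MCM4 and 0.13 ± 0.10 for MCM6. The other 6 genes, CDT1, MCM2, MCM3, MCM5, MCM7 and CDC45, had differences between 0.04 and 0.23, none of them called in either fit.

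Of the 5 genes of nucleotide supply and the replication clamp, RRM2 alone was called, and only with donor as a term. RRM2 had signals of 11.58, 11.16 and 11.88 with TGF-β3 and 11.00, 10.69 and 11.25 without it at 2% oxygen, and of 11.30, 11.09 and 11.67 with TGF-β3 and 11.17, 10.67 and 10.99 without it at 21% oxygen. RRM2, the regulated subunit of ribonucleotide reductase, was higher with TGF-β3 in each of the 6 pairs of cultures from 1 donor, by 0.36, 0.44 and 0.65 on average in donors 1, 2 and 3. Its groups overlapped, with donor 2 lowest in every condition. The difference was 0.48 ± 0.15 or 1.40-fold, with a limma adjusted p of 0.0763, or 0.00235 with donor as a term. The partner subunit RRM1 had a difference of 0.01 ± 0.10, with a 95% interval of -0.22 to 0.23. PCNA read 11.38, 11.06 and 11.61 with TGF-β3 at 2% oxygen, against 11.33, 11.13 and 11.22 without it, and 11.19, 10.92 and 11.54 with TGF-β3 at 21% oxygen, against 11.45, 11.02 and 11.13 without it. The sliding clamp PCNA was higher with TGF-β3 in donor 3 and lower in donor 2 at both oxygen tensions, with a difference of 0.07 ± 0.13 and a 95% interval of -0.21 to 0.34. TK1 had signals of 8.60, 8.0 and 8.94 with TGF-β3 and 8.81, 8.23 and 8.69 without it at 2% oxygen, and of 8.62, 8.05 and 8.63 with TGF-β3 and 8.59, 8.18 and 8.28 without it at 21% oxygen. Thymidine kinase TK1 was lower with TGF-β3 in donors 1 and 2 at 2% oxygen and higher in donor 3, with a difference of 0.01 ± 0.17. Thymidylate synthase TYMS had a difference of 0.09 ± 0.09, with a 95% interval of -0.11 to 0.29.

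The 5 genes of S phase entry and its checkpoint had a median difference of 0.20, and the cyclin CCNA2 was called with donor as a term. CCNA2 read 11.65, 11.42 and 11.97 with TGF-β3 at 2% oxygen, against 11.20, 10.99 and 11.24 without it, and 11.38, 11.32 and 11.78 with TGF-β3 at 21% oxygen, against 11.56, 11.10 and 11.18 without it. At 2% oxygen all 3 cultures with TGF-β3 were above all 3 without it, while at 21% oxygen donor 1 was lower with TGF-β3 and the groups overlapped. The averaged difference of CCNA2, which drives S phase and the entry into mitosis, was 0.38 ± 0.12 (limma adjusted p = 0.0826, or 0.0268 with donor as a term). CCNE2 had signals of 9.90, 9.45 and 10.22 with TGF-β3 and 9.41, 9.24 and 9.90 without it at 2% oxygen, and of 9.61, 9.31 and 10.08 with TGF-β3 and 9.87, 9.42 and 9.76 without it at 21% oxygen. The G1/S cyclin CCNE2 was higher with TGF-β3 in all donors at 2% oxygen, and at 21% oxygen lower in donors 1 and 2 and higher in donor 3. CHEK1 read 9.24, 9.05 and 9.67 with TGF-β3 at 2% oxygen, against 9.23, 8.92 and 9.09 without it, and 8.93, 8.80 and 9.56 with TGF-β3 at 21% oxygen, against 9.03, 8.73 and 9.02 without it. The checkpoint kinase CHEK1 differed mainly in donor 3. The differences were 0.16 ± 0.17 for CCNE2, 0.20 ± 0.14 for CHEK1, 0.24 ± 0.16 for the transcription factor E2F1 and 0.06 ± 0.15 for the cyclin CCNE1, none of them called in either fit.

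The mitotic transcription factors differed from each other. MYBL2 had signals of 9.80, 9.43 and 9.90 with TGF-β3 and 9.23, 8.89 and 9.10 without it at 2% oxygen, and of 9.80, 9.62 and 10.05 with TGF-β3 and 9.27, 9.02 and 9.01 without it at 21% oxygen. All 6 cultures with TGF-β3 had more MYBL2 than all 6 without it. Such a gap was seen for 2 of the 43 genes, MYBL2 and CDC25C, and for 3.09% of all probe sets. MYBL2 rose by 0.68 ± 0.11, or 1.60-fold, with a limma adjusted p of 0.00248. It was called without any 1 array and without any 1 donor, with differences between 0.56 and 0.75 over all settings. FOXM1 read 8.34, 8.21 and 8.72 with TGF-β3 at 2% oxygen, against 8.33, 8.08 and 8.11 without it, and 8.29, 8.15 and 8.49 with TGF-β3 at 21% oxygen, against 8.42, 8.08 and 8.05 without it. FOXM1 was higher with TGF-β3 mainly in donor 3, and in donor 1 at 21% oxygen it was lower. Its difference was 0.19 ± 0.11 (adjusted p = 0.356, 95% interval -0.05 to 0.42).

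Of the 7 mitotic kinases and partners, 5 rose with TGF-β3, CDC25C, AURKA, PLK1, CCNB1 and AURKB, and BIRC5 passed only with donor as a term. CDC25C had signals of 8.12, 8.05 and 8.38 with TGF-β3 and 7.82, 7.64 and 7.88 without it at 2% oxygen, and of 8.17, 7.98 and 8.20 with TGF-β3 and 7.67, 7.46 and 7.77 without it at 21% oxygen. CDC25C was higher in all cultures with TGF-β3 than in any without it, and its donor differences were close together at 0.40, 0.46 and 0.46. It rose by 0.44 ± 0.08 (adjusted p = 0.00699) and was called without any 1 array. Without donor 1 the adjusted p was 0.114 and without donor 2 it was 0.058, or 0.0138 and 0.033 with donor as a term.

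AURKA read 9.54, 9.31 and 10.00 with TGF-β3 at 2% oxygen, against 9.21, 8.83 and 8.99 without it, and 9.45, 9.44 and 9.89 with TGF-β3 at 21% oxygen, against 9.32, 8.76 and 8.85 without it. Within each oxygen tension the cultures with and without the cytokine did not overlap in AURKA, the spindle pole kinase, which rose by 0.61 ± 0.14 (limma adjusted p = 0.0214). PLK1 had signals of 10.62, 10.31 and 10.97 with TGF-β3 and 10.37, 10.04 and 10.19 without it at 2% oxygen, and of 10.43, 10.32 and 10.76 with TGF-β3 and 10.20, 9.83 and 9.96 without it at 21% oxygen. PLK1, the Polo-like kinase, was higher with TGF-β3 in every donor, without overlap at 21% oxygen, and rose by 0.47 ± 0.12 (adjusted p = 0.0362). AURKB read 9.98, 9.80 and 10.37 with TGF-β3 at 2% oxygen, against 9.82, 9.47 and 9.64 without it, and 9.90, 9.79 and 10.15 with TGF-β3 at 21% oxygen, against 9.70, 9.43 and 9.53 without it. AURKB, the kinase of the chromosomal passenger complex, did not overlap at 21% oxygen and rose by 0.40 ± 0.11 (adjusted p = 0.0439). CCNB1 had signals of 9.98, 9.63 and 10.08 with TGF-β3 and 9.40, 9.54 and 9.52 without it at 2% oxygen, and of 9.74, 9.52 and 9.87 with TGF-β3 and 9.61, 9.30 and 9.23 without it at 21% oxygen. CCNB1, the cyclin partner of CDK1, did not overlap at 2% oxygen and rose by 0.37 ± 0.10 (adjusted p = 0.0387). Without the donor term none of these 4 was called when any 1 donor was left out, and with it AURKA, PLK1 and AURKB were called without donor 1 (adjusted p = 0.013, 0.0298 and 0.0314) and none of the 4 without donor 2 or donor 3. Without donor 3 their differences were 0.41 for AURKA, 0.31 for PLK1, 0.26 for AURKB and 0.26 for CCNB1.

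BIRC5 read 10.03, 9.91 and 10.46 with TGF-β3 at 2% oxygen, against 10.08, 9.51 and 9.96 without it, and 9.97, 9.77 and 10.21 with TGF-β3 at 21% oxygen, against 9.68, 9.38 and 9.66 without it. BIRC5, or survivin, another passenger protein, was separated by TGF-β3 at 21% oxygen, and at 2% oxygen donor 1 was slightly lower with it. Its difference was 0.35 ± 0.13 (limma adjusted p = 0.133, or 0.0148 with donor as a term). CDK1 had signals of 9.48, 9.32 and 10.15 with TGF-β3 and 9.28, 8.96 and 9.19 without it at 2% oxygen, and of 9.13, 8.97 and 9.78 with TGF-β3 and 9.34, 8.66 and 9.11 without it at 21% oxygen. CDK1, the central mitotic kinase, was separated at 2% oxygen, but at 21% oxygen donor 1 was lower with TGF-β3. The averaged difference was 0.38 ± 0.18 and was not called in either fit (adjusted p = 0.252 and 0.0692).

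**Figure D3:**
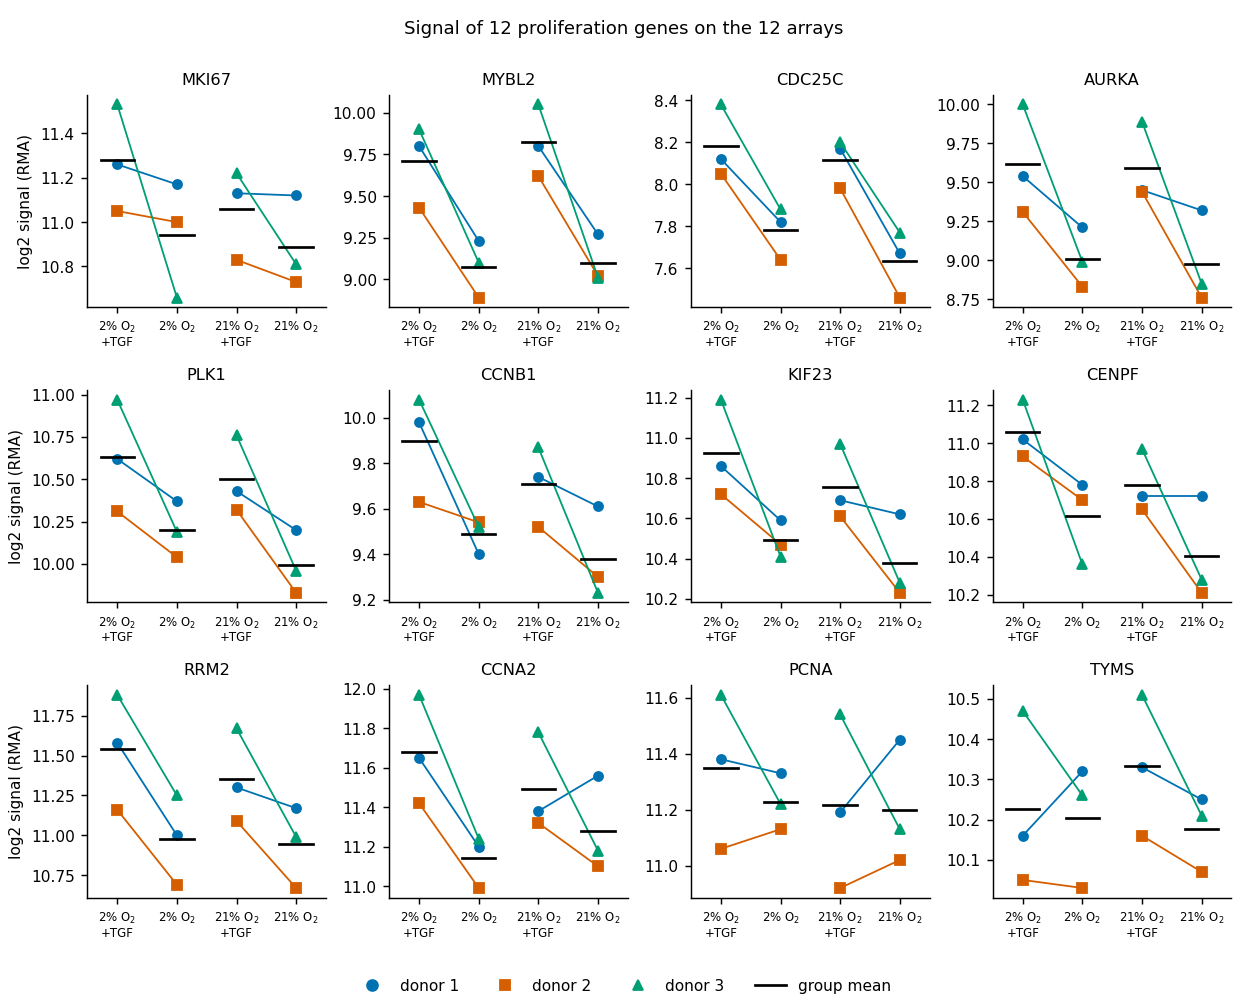
Log2 signal of 12 of the genes on the 12 arrays, by condition, with 1 symbol per donor, lines joining the cultures of a donor with and without TGF-β3 at 1 oxygen tension, and bars at group means; axes do not start at 0. MYBL2 and CDC25C show no overlap between cultures with and without TGF-β3, while PCNA and TYMS overlap at both oxygen tensions.

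The 5 genes of the spindle checkpoint and anaphase had a median difference of 0.26 and none was called, while BUB1 and UBE2C passed with donor as a term. UBE2C read 10.89, 10.68 and 11.66 with TGF-β3 at 2% oxygen, against 10.94, 10.26 and 10.69 without it, and 10.66, 10.43 and 11.33 with TGF-β3 at 21% oxygen, against 10.46, 10.04 and 10.31 without it. UBE2C, the ubiquitin-conjugating enzyme of the anaphase-promoting complex, was highest in donor 3 with TGF-β3. Its difference of 0.49 ± 0.20 came from donor differences of 0.08, 0.40 and 1.00, and without donor 3 it was 0.24. BUB1 had signals of 9.53, 9.47 and 9.99 with TGF-β3 and 9.48, 9.22 and 9.18 without it at 2% oxygen, and of 9.54, 9.37 and 9.87 with TGF-β3 and 9.44, 9.07 and 9.11 without it at 21% oxygen. The checkpoint kinase BUB1 was higher in every donor at both oxygen tensions, with a difference of 0.38 ± 0.12, or 0.18 without donor 3. Fitted with donor as a term, the limma adjusted p was 0.0373 for UBE2C and 0.0461 for BUB1, against 0.169 and 0.0806 without it. CDC20 read 9.86, 9.66 and 10.38 with TGF-β3 at 2% oxygen, against 9.90, 9.57 and 9.82 without it, and 9.71, 9.63 and 10.12 with TGF-β3 at 21% oxygen, against 9.71, 9.49 and 9.48 without it. CDC20, the activator of the anaphase-promoting complex, overlapped between groups, with a difference of 0.23 ± 0.13. The checkpoint gene BUB1B, with 0.14 ± 0.12, and separase ESPL1, with 0.26 ± 0.15, were lower with TGF-β3 in donor 1 and higher in donor 3 when averaged over oxygen.

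Of the 8 kinesin, spindle and kinetochore genes KIF23 and CENPF rose, and CENPE and PRC1 passed only with donor as a term. KIF23 had signals of 10.86, 10.72 and 11.19 with TGF-β3 and 10.59, 10.47 and 10.41 without it at 2% oxygen, and of 10.69, 10.61 and 10.97 with TGF-β3 and 10.62, 10.23 and 10.28 without it at 21% oxygen. KIF23, a motor of the central spindle needed for cytokinesis, did not overlap at 2% oxygen and rose by 0.41 ± 0.10 (limma adjusted p = 0.0304). CENPF read 11.02, 10.93 and 11.23 with TGF-β3 at 2% oxygen, against 10.78, 10.70 and 10.36 without it, and 10.72, 10.65 and 10.97 with TGF-β3 at 21% oxygen, against 10.72, 10.21 and 10.28 without it. CENPF, a large kinetochore protein, did not overlap at 2% oxygen either, and in donor 1 at 21% oxygen both cultures read 10.72. It rose by 0.41 ± 0.11 (adjusted p = 0.041). Without the donor term neither was called when any 1 donor was left out, and with it both were called without donor 1 (adjusted p = 0.0379 for KIF23 and 0.0486 for CENPF) and neither without donor 2 or donor 3. Without donor 3 the differences were 0.25 for KIF23 and 0.23 for CENPF.

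CENPE had signals of 10.57, 10.36 and 10.98 with TGF-β3 and 10.22, 9.90 and 10.22 without it at 2% oxygen, and of 10.32, 10.14 and 10.69 with TGF-β3 and 10.36, 9.62 and 9.96 without it at 21% oxygen. The kinetochore motor CENPE was separated at 2% oxygen, with an averaged difference of 0.46 ± 0.15. PRC1 read 10.90, 10.54 and 11.12 with TGF-β3 at 2% oxygen, against 10.65, 10.35 and 10.55 without it, and 10.66, 10.43 and 10.95 with TGF-β3 at 21% oxygen, against 10.59, 9.97 and 10.35 without it. The microtubule bundler PRC1 was higher with TGF-β3 in all 6 pairs of cultures, with a difference of 0.36 ± 0.14. The limma adjusted p with donor as a term was 0.014 for CENPE and 0.0153 for PRC1, against 0.0845 and 0.14 without it. KIF11 had signals of 11.06, 10.97 and 11.31 with TGF-β3 and 10.74, 10.74 and 10.57 without it at 2% oxygen, and of 10.76, 10.69 and 11.08 with TGF-β3 and 10.92, 10.43 and 10.42 without it at 21% oxygen. KIF11, the motor that pushes spindle poles apart, was separated at 2% oxygen and lower with TGF-β3 in donor 1 at 21% oxygen, with a difference of 0.34 ± 0.11 that was not called in either fit. The AURKA activator TPX2 had a difference of 0.30 ± 0.10, also not called.

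MKI67, the antigen Ki-67 that coats mitotic chromosomes, is the usual histological marker of cycling cells. MKI67 read 11.26, 11.05 and 11.53 with TGF-β3 at 2% oxygen, against 11.17, 11.00 and 10.66 without it, and 11.13, 10.83 and 11.22 with TGF-β3 at 21% oxygen, against 11.12, 10.73 and 10.81 without it. It was higher with TGF-β3 in every donor at both oxygen tensions, but the groups overlapped, and the largest gap was that of donor 3 at 2% oxygen. The difference was 0.26 ± 0.12 with donor values of 0.05, 0.08 and 0.64, and the limma adjusted p was 0.245, or 0.162 with donor as a term.

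At 21% oxygen alone, TGF-β3 against no TGF-β3 raised MYBL2, by 0.73 ± 0.15 (1.66-fold, limma adjusted p = 0.0297), and with donor as a term CDC25C also rose, by 0.48 ± 0.12 (adjusted p = 0.0046, against 0.0577 without that term). This is 1 of 43 genes, or 2.33%, against 1.28% of all probe sets called higher. With donor as a term it is 2 of 43, or 4.65%, against 2.95%. All 43 genes lay above the array medians. A fit without donor of only the probe sets with a mean above the median signal called 2 of 43. Of the probe sets in that fit 8.4% were called, higher and lower together. The MYBL2 call at 21% oxygen was lost without donor 2 or donor 3 among the cultures at 21% oxygen without TGF-β3, without donor 1 or donor 3 among those with it, and without any 1 donor throughout, and the count was 2 without donor 3 at 2% oxygen with TGF-β3. At an unadjusted p under 0.05 it was 10 genes of 43, all higher, against 7.64% of all probe sets. For 6 genes, MYBL2, CDC25C, PLK1, AURKA, AURKB and BIRC5, the cultures with and without TGF-β3 did not overlap, against 10.7% of all probe sets. In 20 of 43 genes, or 46.5%, the culture with TGF-β3 was the higher one in all 3 donors, against 20.9% of all probe sets. The mean difference was above 0 for 41 of 43 genes, against 52.7% of all probe sets. The median over the genes was 0.26, or 0.04, 0.23 and 0.57 in donors 1, 2 and 3. It was 0.41 without donor 1, 0.09 without donor 3 and 0.12 without the donor 3 culture with TGF-β3.

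At 2% oxygen 0 of 43 genes were called by limma, against 1.45% of all probe sets called higher. With donor as a term MYBL2, CDC25C, RRM2 and CCNA2 rose, which is 9.3% of the genes against 3.25% of all probe sets. None of them was called in that fit without donor 1 or without donor 2, and without donor 3 only MYBL2 was. A fit without donor of only the probe sets with a mean above the median signal called 1 of 43 genes. Of the probe sets in that fit 8.99% were called, higher and lower together. MYBL2 had a difference of 0.63 ± 0.15 with an adjusted p of 0.0502, or 0.00881 with donor as a term, RRM2 of 0.56 ± 0.22 (0.231 or 0.0135) and CCNA2 of 0.54 ± 0.17 (0.137 or 0.0434). CDC25C had a difference of 0.40 ± 0.12 (0.103 or 0.00962). The count without that term was 1 without donor 2 at 2% oxygen with TGF-β3 or without donor 3 at 21% oxygen with it. At an unadjusted p under 0.05 it was 13 genes, all higher, against 7.72% of all probe sets. The groups did not overlap for 12 of 43 genes, against 10.1% of all probe sets, and 11 of the 12 act in G2 and mitosis. In 24 of 43 genes, or 55.8%, all 3 donors were higher with TGF-β3, against 20.4% of all probe sets. The mean difference was above 0 for 42 of 43 genes, against 51.7% of all probe sets. The median over the genes was 0.32, with 0.09, 0.15 and 0.56 in donors 1, 2 and 3. It was 0.15 without donor 3, 0.16 without the donor 3 culture with TGF-β3 and 0.20 without the donor 2 culture without it.

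The TGF-β3 difference at 2% oxygen minus that at 21% oxygen was tested as an interaction. No gene was called by limma with or without donor as a term, 0 had an unadjusted p under 0.05, against 1.42% of all probe sets higher at that level, and no probe set of the 26773 was called (0.0%). The median over the 43 genes was 0.00, with 22 above 0 and 21 below, against 48.8% of all probe sets above 0. The largest difference was that of CCNE2, 0.35 ± 0.35, with a 95% interval of -0.41 to 1.12, and then that of CCNA2, 0.32 ± 0.24, with an interval of -0.21 to 0.86. These intervals come from the fit without donor and include the spread between donors. Intervals of this width do not show that the response was alike at both oxygen tensions.

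Hypoxia, 2% against 21% oxygen averaged over TGF-β3, changed none of the 43 genes by limma, against 0.0448% of all probe sets called higher, or 0.261% with donor as a term, when the count was also 0. At an unadjusted p under 0.05, 3 genes were higher, KIF20A, BUB1B and CENPA, or 6.98% against 3.83% of all probe sets. The median over the genes was 0.12, against -0.003 over all probe sets, with 0.08, 0.12 and 0.15 in donors 1, 2 and 3. In 40 of 43 genes the mean difference was above 0, against 49.0% of all probe sets, and in 28 of 43, or 65.1%, all 3 donors were higher at 2% oxygen, against 17.6%. Of the G2 and mitosis genes 20 of 23 were higher in all 3 donors, with a median of 0.18, and of the S phase genes 8 of 20, with a median of 0.07; the phases were not tested against each other.

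UBE2C had the largest difference with hypoxia of the 43 genes, followed by BUB1B and CENPA, none of them called. UBE2C read 10.89, 10.68 and 11.66 at 2% oxygen with TGF-β3, against 10.66, 10.43 and 11.33 at 21% oxygen with it, and 10.94, 10.26 and 10.69 at 2% oxygen without TGF-β3, against 10.46, 10.04 and 10.31 at 21% oxygen without it. UBE2C was higher at 2% oxygen in each of the 6 pairs of cultures. Its difference was 0.32 ± 0.20, with a 95% interval of -0.13 to 0.76. That interval comes from the fit without donor and includes the spread between donors. With donor as a term UBE2C was not called either. CENPA read 10.26, 10.17 and 10.58 at 2% oxygen with TGF-β3, against 9.74, 10.08 and 10.30 at 21% oxygen with it, and 9.84, 9.94 and 10.12 at 2% oxygen without TGF-β3, against 9.97, 9.47 and 9.73 at 21% oxygen without it. The centromeric histone CENPA was lower at 2% oxygen in donor 1 without TGF-β3 and higher in the other 5 pairs, with a difference of 0.27 ± 0.12 (limma adjusted p = 0.722). KIF20A read 11.11, 11.06 and 11.33 at 2% oxygen with TGF-β3, against 10.84, 10.85 and 11.24 at 21% oxygen with it, and 11.14, 10.97 and 10.99 at 2% oxygen without TGF-β3, against 10.92, 10.67 and 10.83 at 21% oxygen without it. KIF20A, a motor of the central spindle, was higher at 2% oxygen in all 6 pairs, with no overlap without TGF-β3, and differed by 0.21 ± 0.09 (adjusted p = 0.687). The groups without TGF-β3 did not overlap for this 1 gene of 43, against 5.5% of all probe sets. The checkpoint gene BUB1B differed by 0.28 ± 0.12 (adjusted p = 0.711) and CENPF by 0.24 ± 0.11 (adjusted p = 0.734).

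The gene with the largest hypoxia difference within its own functional group was CDK1 among the kinases and partners, 0.23 ± 0.18, CHEK1 in S phase entry, 0.19 ± 0.14, TK1 in nucleotide supply, 0.15 ± 0.17, and MCM4 in origin licensing, 0.13 ± 0.08. MKI67 differed by 0.14 ± 0.12. These 5 had limma adjusted p between 0.841 and 0.934. FOXM1 differed by 0.05 ± 0.11. MYBL2, which had the largest TGF-β3 difference, was -0.07 ± 0.11 with hypoxia, with a 95% interval of -0.31 to 0.17, and was lower at 2% oxygen in all 3 donors by the average of both comparisons. MCM5 and TYMS were the other 2 genes with a mean difference below 0.

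**Figure D4:**
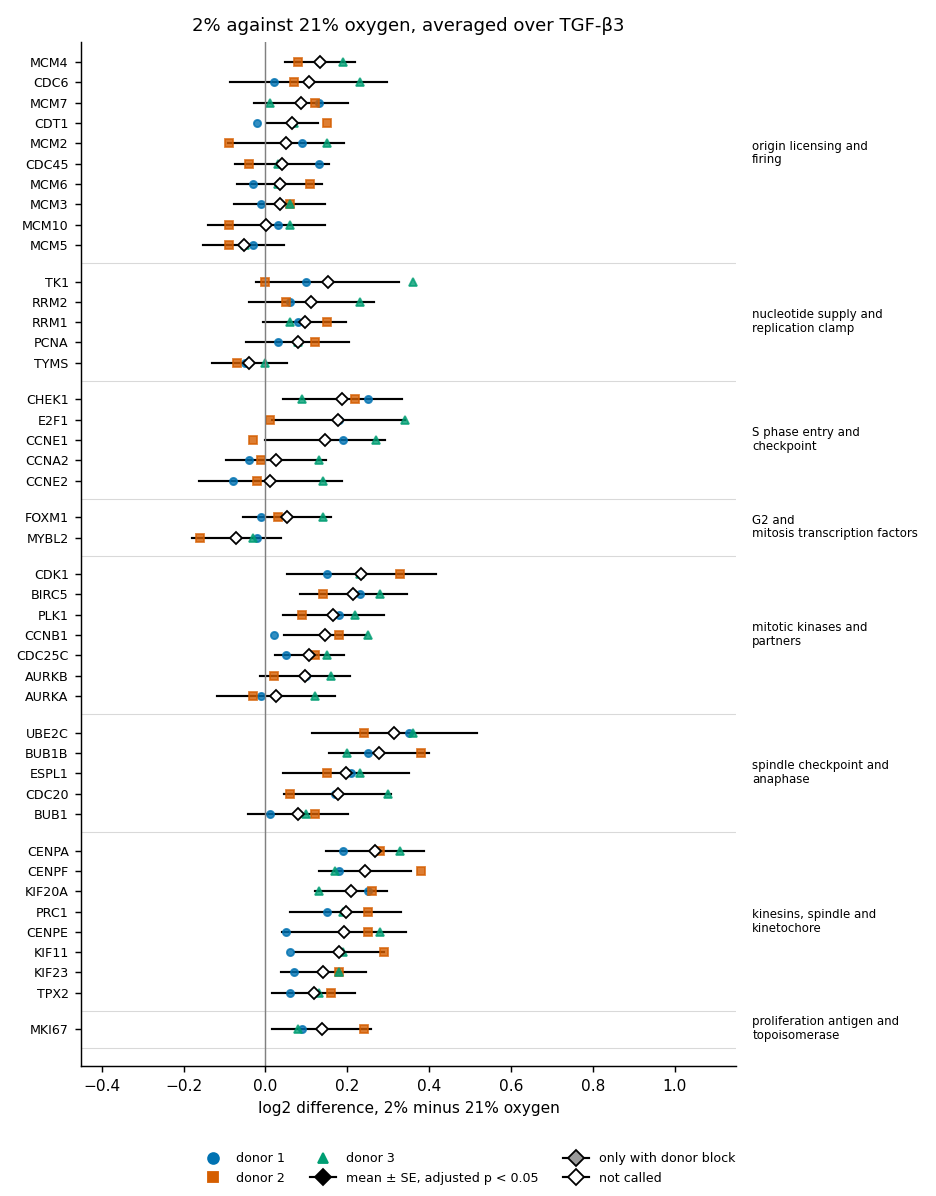
Log2 difference between 2% and 21% oxygen, averaged over cultures with and without TGF-β3, for the 43 genes in their functional groups. Diamonds are means of 3 donors, bars are the SE of the limma fit without donor, and coloured points are single donors. All diamonds are open since none of the 43 genes was called, and 40 lie above 0.

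Without TGF-β3, hypoxia had a median of 0.11 over the genes, with 0.05, 0.13 and 0.13 in donors 1, 2 and 3, and with TGF-β3 a median of 0.15, with 0.18, 0.09 and 0.21. No gene was called in either comparison with or without donor as a term, and 0 had an unadjusted p under 0.05 in either. Of all probe sets 0.00374% were called higher without TGF-β3 (0.00747% with donor as a term) and 0.0% with it (0.0224% with donor as a term). An unadjusted p under 0.05 and a higher value were found for 2.94% of all probe sets without TGF-β3 and for 2.38% with it. The mean difference was above 0 for 38 of 43 genes without TGF-β3, against 50.6% of all probe sets, and for 39 of 43 with it, against 48.5%. With TGF-β3, 0 genes had groups that did not overlap, against 4.4% of all probe sets. In 17 of 43 genes all 3 donors were higher at 2% oxygen without TGF-β3, against 15.8% of all probe sets, and in 27 of 43 with it, against 16.6%. Single cultures moved these medians: with TGF-β3 it was 0.00 without the donor 3 culture and 0.28 without the donor 2 culture at 2% oxygen, and 0.27 and 0.04 without the donor 3 and donor 2 cultures at 21% oxygen. Without TGF-β3 it was 0.03 and 0.17 without the donor 1 and donor 2 cultures at 2% oxygen, 0.20, 0.02 and 0.06 without the donor 1, 2 and 3 cultures at 21% oxygen, and 0.07 without donor 2 throughout. The averaged hypoxia median was 0.06 and 0.19 without the donor 3 and donor 2 cultures at 2% oxygen with TGF-β3, and 0.18 and 0.07 without those at 21% oxygen with it.

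Both factors together, 2% oxygen with TGF-β3 against 21% oxygen without it, raised CENPF by 0.66 ± 0.16 (1.58-fold, limma adjusted p = 0.0455) and CDC25C by 0.55 ± 0.12 (1.46-fold, adjusted p = 0.027). In the fit with donor as a term 13 genes rose: these and MYBL2, KIF23, CCNB1, PLK1, CENPA, AURKB, BIRC5, CENPE, PRC1, UBE2C and RRM2. The counts are 4.65% of the 43 genes, against 1.89% of all probe sets, and 30.2%, against 3.8% with donor as a term. All 43 genes had a mean difference above 0, against 51.5% of all probe sets. At an unadjusted p under 0.05 it was 23 genes, against 8.13% of all probe sets, 21 of them G2 and mitosis genes. UBE2C had the largest difference, 0.81 ± 0.28 or 1.75-fold (adjusted p = 0.174, or 0.0329 with donor as a term), and TYMS and MCM5 the smallest, both 0.05. All 3 donors were higher in 35 of 43 genes, or 81.4%, against 21.6% of all probe sets, and the groups did not overlap for 15 of 43, against 11.2%. The cultures at 21% oxygen without TGF-β3 also serve as controls for TGF-β3 at 21% oxygen and for hypoxia without TGF-β3, so these comparisons are not independent.

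The median over the genes for both factors against neither was 0.42, with 0.18, 0.33 and 0.78 in donors 1, 2 and 3, and 0.23 without donor 3 or 0.27 without only its culture at 2% oxygen with TGF-β3. The count of 2 called genes was 0 without donor 1 or donor 3 at 2% oxygen with TGF-β3 or without donor 2 at 21% oxygen without it, and 4 without donor 2 in the first group or donor 1 in the second. It was 1 without donor 3 at 21% oxygen without TGF-β3, without donor 1 or 2 at 2% oxygen without TGF-β3, or without donor 1 or 2 at 21% oxygen with it. It was 0 without any 1 donor throughout. Of all probe sets 1.69% to 4.02% were called without 1 array, higher and lower together. Without donors 1, 2 and 3 in turn that share was 0.631%, 0.377% and 1.81%.

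The donors differed among themselves. Donor 2 had the lowest mean over its 4 arrays for 43 of 43 genes, and donor 3 had the highest for 27 and donor 1 for 16. The array of donor 3 at 2% oxygen with TGF-β3 was the highest of the 12 for 35 of 43 genes, and that of donor 3 at 21% oxygen with TGF-β3 for 5 more. The array of donor 2 at 21% oxygen without TGF-β3 was the lowest for 23 genes. Relative to each gene's mean over 12 arrays, the median over the genes was 0.19, -0.03 and 0.50 in donors 1, 2 and 3 at 2% oxygen with TGF-β3, and 0.06, -0.21 and -0.06 at 2% oxygen without it. It was 0.08, -0.15 and 0.31 at 21% oxygen with TGF-β3, and 0.01, -0.33 and -0.22 at 21% oxygen without it. Donor 2 lay lowest in all 4 conditions, and donor 3 was below donor 1 without TGF-β3 and above it with TGF-β3. Donor 3 had the largest TGF-β3 difference for 40 of 43 genes at 2% oxygen and for 40 of 43 at 21% oxygen. With 1 culture per donor and condition, the differences between donors were not tested.

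The medians of other replication and other mitosis genes with TGF-β3 lay closer together than those of the S phase and the G2 and mitosis genes. Genes of both other lists were called, and the lists were not tested against each other. With TGF-β3 averaged over oxygen, limma called 4.65% of all probe sets higher and 4.99% lower, or 7.3% and 7.47% with donor as a term. Of 27 other DNA replication genes 4 rose and none fell, or 8 and none with donor as a term, with a median of 0.24. These were GINS4, by 0.63 ± 0.12, and GINS2, by 0.32 ± 0.09, both subunits of the active helicase, the CDT1 inhibitor geminin, GMNN, by 0.61 ± 0.13, and the fork protection gene TIPIN, by 0.24 ± 0.07 (limma adjusted p between 0.00838 and 0.0459). Of 50 other mitosis genes 8 rose and none fell, or 21 and none with donor as a term, with a median of 0.32. KIF14, a cytokinesis motor, read 7.63, 7.76 and 7.97 with TGF-β3 at 2% oxygen, against 7.28, 7.26 and 6.96 without it, and 7.56, 7.72 and 7.57 with TGF-β3 at 21% oxygen, against 7.11, 6.99 and 7.02 without it. Its cultures with and without TGF-β3 did not overlap, and it rose by 0.60 ± 0.08 (adjusted p = 0.000863), as it did at 21% oxygen, by 0.58 ± 0.11, and at 2% oxygen, by 0.62 ± 0.11. The passenger gene CDCA8, the phosphatase regulator CDCA2 and the condensin subunit NCAPH rose by 0.65 ± 0.15, 0.52 ± 0.12 and 0.53 ± 0.14. No gene of either list was called with hypoxia by limma in either fit.

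The regulators upstream of these genes did not all move one way with TGF-β3. Of 10 genes of G1 cyclins, CDKs and MYC, 3 rose and none fell, or 3 and 2 with donor as a term, against 4.65% and 4.99% of all probe sets, or 7.3% and 7.47% with donor as a term. Their median was -0.02. The growth-promoting transcription factor MYC read 9.80, 9.77 and 9.85 with TGF-β3 at 2% oxygen, against 9.16, 9.07 and 9.22 without it, and 9.88, 9.69 and 9.85 with TGF-β3 at 21% oxygen, against 9.07, 9.01 and 9.24 without it. MYC was higher in every culture with TGF-β3 than in any without it and rose by 0.68 ± 0.06 (limma adjusted p = 7.4e-05), with donor differences of 0.72, 0.69 and 0.62. The G1 kinase CDK6 rose by 0.25 ± 0.07 (adjusted p = 0.0335) and the phosphatase CDC25A by 0.48 ± 0.14 (adjusted p = 0.0474). With donor as a term the D-type cyclins CCND1, with -0.47 ± 0.18, and CCND3, with -0.22 ± 0.11, were called lower (adjusted p = 0.0103 and 0.018), and these 2 were chosen for naming after their values were seen.

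Of 7 CDK inhibitors, 2 rose with TGF-β3 and 1 fell in either fit, against the same shares of all probe sets. CDKN1A, which encodes p21 and is a target of p53, read 8.73, 8.67 and 9.03 with TGF-β3 at 2% oxygen, against 9.47, 9.30 and 10.49 without it, and 8.76, 8.88 and 9.32 with TGF-β3 at 21% oxygen, against 9.33, 9.59 and 10.06 without it. Within each oxygen tension its cultures with and without TGF-β3 did not overlap, although at 21% oxygen they came as close as 9.32 and 9.33. The averaged difference was -0.81 ± 0.21 (limma adjusted p = 0.0313, or 0.00112 with donor as a term), or 0.57-fold. CDKN1B, which encodes p27, rose by 0.55 ± 0.14 and CDKN2D, an INK4 inhibitor, by 0.51 ± 0.13 (limma adjusted p = 0.0276 and 0.0268). In CDKN1B every culture with TGF-β3 read 8.62 or more and every culture without it 8.57 or less. Of 14 RB, E2F and DREAM regulators 2 rose and 1 fell, against 4.65% and 4.99% of all probe sets, or 4 and 1 with donor as a term, which added TFDP2 and LIN9 (adjusted p = 0.0263 and 0.0343). RB1, the retinoblastoma gene that holds E2F factors in check, read 9.74, 9.71 and 9.90 with TGF-β3 at 2% oxygen, against 10.19, 10.24 and 10.68 without it, and 9.64, 9.78 and 9.89 with TGF-β3 at 21% oxygen, against 10.21, 10.25 and 10.48 without it. The groups did not overlap in RB1, which fell by 0.56 on the log2 scale (SE 0.10, adjusted p = 0.00377) in all 3 donors. E2F5, a repressive E2F, rose by 0.45 ± 0.06 and LIN52, a subunit of the MuvB complex through which MYBL2 acts, by 0.78 ± 0.11 (adjusted p = 0.0012 and 0.00153). Of 9 p53 targets SESN1 fell, by 0.56 (limma adjusted p = 0.000591), and PLK2 rose, by 0.43 ± 0.08 (adjusted p = 0.00742). Of all probe sets 4.99% were called lower and 4.65% higher. The fit with a donor term gave 1 higher and 2 lower, against 7.3% and 7.47% of all probe sets. The gene it added was ZMAT3, at -0.46 (adjusted p = 0.00359). None of the genes of these 4 lists was called with hypoxia in either limma fit.

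**Figure D5:**
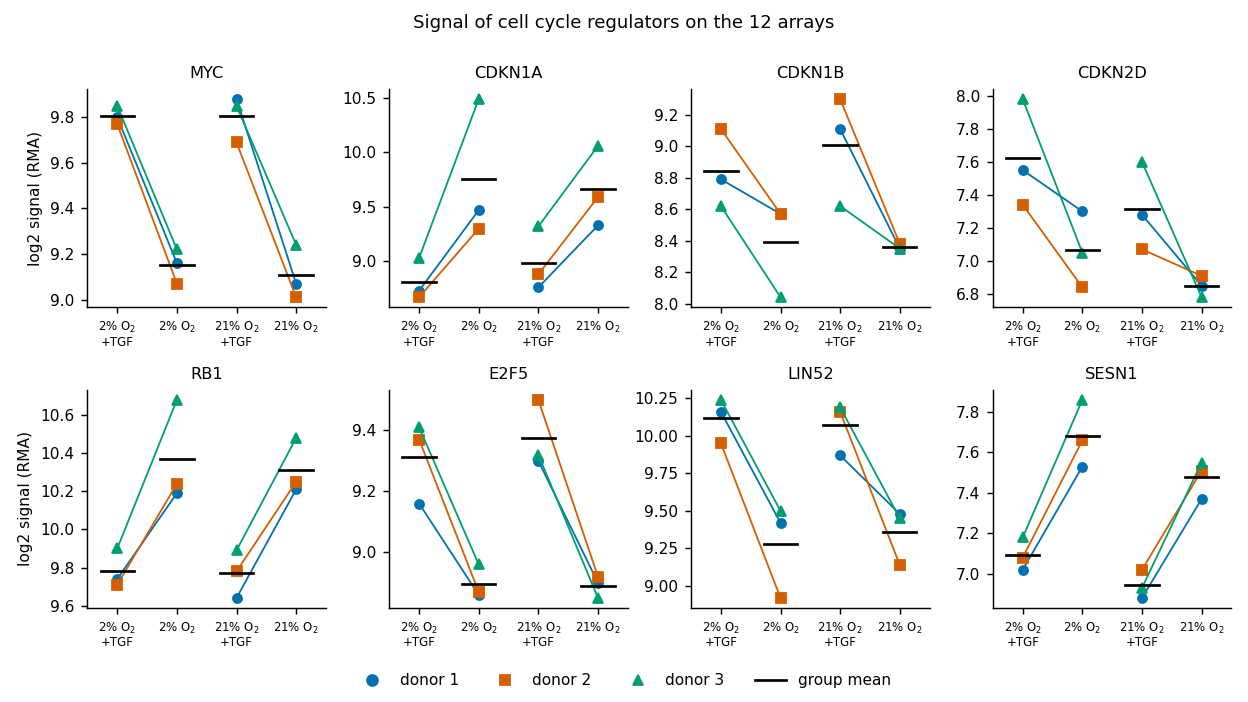
Log2 signal of 8 cell cycle regulators on the 12 arrays, by condition, with 1 symbol per donor, lines joining the cultures of a donor with and without TGF-β3, and bars at group means; axes do not start at 0. MYC, CDKN1B, E2F5 and LIN52 lie higher and RB1 and SESN1 lower in cultures with TGF-β3, without overlap between the cultures with and without it.

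Markers of other cell types were set beside these results. The 12 haematopoietic markers had none called with TGF-β3 and a summed linear signal of 711 to 811 at 2% oxygen with TGF-β3, against 716 to 778 without it, and of 726 to 739 at 21% oxygen with TGF-β3, against 683 to 723 without it. The 7 erythroid markers summed to 334 to 357 and 310 to 349 at 2% oxygen with and without TGF-β3, and to 368 to 395 and 348 to 358 at 21% oxygen. The 8 endothelial markers summed to 539 to 730 and 367 to 382 at 2% oxygen with and without TGF-β3, and to 507 to 676 and 341 to 362 at 21% oxygen. Of these PECAM1 rose with TGF-β3, by 2.12 ± 0.17 (limma adjusted p = 3.9e-05), while KDR and EMCN were below the first quartile of every array. The 6 osteoclast markers summed to 436 to 507 and 663 to 828 at 2% oxygen, and to 435 to 474 and 640 to 654 at 21% oxygen, and NFATC1 fell by 0.99 while CALCR and DCSTAMP were below the first quartile of every array. Of the 12 mesenchymal stromal markers 6 fell with TGF-β3, NT5E, ENG, PDGFRA, PDGFRB, CXCL12 and VIM, against 4.99% of all probe sets called lower. The list summed to 45800 to 46900 and 55200 to 59100 at 2% oxygen with and without TGF-β3, and to 45200 to 45800 and 55800 to 56300 at 21% oxygen. The part of these markers in the results on proliferation genes was not tested.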

How the data were processed

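The values are log2 probe set signals that the authors deposited as 1 table of 12 arrays and 26773 probe sets. RMA and Partek 6.6 are named in the submitters' processing notes. The log2 scale was inferred from the values, and per the labels each array is 1 culture. The donor was taken from the sample titles, although the third donor carries another number in the descriptions. Gene symbols came from the platform annotation: 18550 probe sets had 1 symbol, 595 had several and 7628 had none.

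Differences were fitted in R 4.3.3 with limma 3.58.1 (lmFit, contrasts.fit, eBayes) on all probe sets and all 4 groups without donor, with Benjamini-Hochberg adjustment over all probe sets at 0.05, and again with donor as a term. The steps were tested on simulated data. The 8 comparisons were TGF-β3 against none at each oxygen tension, hypoxia with and without TGF-β3, the culture with both factors against that with neither, the averages of the TGF-β3 and of the hypoxia comparisons, and their interaction. The same donor appears in every group, so the donors pair the samples. Deviations from group means correlated at 0.177 to 0.602 within a donor (18 pairs of arrays) and at -0.44 to 0.1 between donors (36 pairs). Deviations within a group cancel out by construction, which pushes the correlations between donors toward negative values, so these ranges are not independent. Without a donor term the residual df were 8 (prior 3.143), and with it 6 (prior 3.337).

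The genes, lists and tests were chosen with earlier results of these data known. Values on every array are given for MKI67, for the genes of each functional group with the highest means or the largest averaged differences, and for every gene called in any comparison in either fit. From the other lists up to 4 called genes per comparison are named. Alternatives changed the donor term, normalisation, filter, variance model, arrays in the fit, probe set per gene, and arrays or donors left out. Promoter sequences were not analysed here.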

Additional observations from a re-analysis of the deposited data

How the results depend on the processing

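No difference of the genes named in a called comparison reversed: over 35 pairs of gene and comparison the alternatives gave 727 values on the same side of the threshold, 114 that lost a call and 88 that gained one. With donor as a replicate block, the number of genes called was 16 against 8 for TGF-β3 averaged over oxygen, 13 against 2 for both factors against neither, 2 against 1 for TGF-β3 at 21% oxygen and 4 against 0 for TGF-β3 at 2% oxygen. With the block and without donor 1, 2 or 3 in turn the counts were 15, 2 and 3 for the average. Of all probe sets 7.89%, 5.17% and 9.11% were called there, higher and lower together. For both against neither the counts were 5, 0 and 1, against 2.57%, 0.93% and 3.22% of all probe sets. At 21% oxygen they were 0, 0 and 2, against 1.58%, 0.676% and 3.12%. At 2% oxygen the count was 1 without donor 3, against 3.72%. None of the 4 genes called there with the block kept its call without donor 1 or donor 2, against 1.81% and 0.904%. Donor as a random block (correlation 0.173) gave 8 for both against neither, 2 at 21% oxygen and 2 at 2% oxygen. Of all probe sets 6.2%, 5.16% and 5.82% were called in these comparisons, higher and lower together. The block changed no other count.

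A test of only the probe sets with a mean above the median signal gave 13 of 43 for the average and 7 for both against neither. It gave 2 at 21% oxygen and 1 at 2% oxygen. Of the probe sets in that test 22.9%, 10.3%, 8.4% and 8.99% were called in these comparisons, higher and lower together. For both against neither the count was 5 with 1 probe set per symbol or the mean over a gene's probe sets, 1 with equal array medians and 0 with only the arrays of both groups in the fit. At 21% oxygen it was 2 with either of those probe set choices or with quantile normalisation, and 0 with only the groups compared. At 2% oxygen it was 1 with either of those probe set choices, with quantile normalisation or with an intensity trend. With 1 probe set per symbol, 6.29% of those tested were called for both against neither, 4.88% at 21% oxygen and 5.69% at 2% oxygen. For both against neither it was 3.61% with equal array medians and 2.42% with only the arrays of both groups. At 21% oxygen it was 2.93% with quantile normalisation and 1.55% with only the groups compared. At 2% oxygen it was 3.35% with quantile normalisation and 3.68% with an intensity trend. The cause of these changes was not tested.

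Leaving out 1 array or 1 donor in turn gave 1 to 12 genes for the average and 0 to 4 for both against neither. It gave 0 to 2 at 21% oxygen and 0 to 1 at 2% oxygen. For the average 2.21% to 8.62% of all probe sets were called in these fits, higher and lower together. The share was 0.377% to 4.02% for both against neither, 0.108% to 2.89% at 21% oxygen and 0.183% to 3.37% at 2% oxygen. A group left with 2 arrays was assumed to vary like the others. The hypoxia medians lay between 0.019 and 0.204 without TGF-β3, between 0.003 and 0.279 with it, and between 0.058 and 0.193 averaged, and the interaction median lay between -0.103 and 0.133. The counts for hypoxia and the interaction were 0 under every alternative run. These alternatives were run on the 43 genes, not on the other lists. The planned search of promoters for motifs was not run.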
